A study of Homo sapiens with 15 samples.

Results

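The question here is how far the effect of an EGFR inhibitor on gene expression differed from the effect of lowering EGFR itself. For each gene, the change from control to almonertinib (the drug effect) was set against the change from a negative-control siRNA to an EGFR siRNA (the knockdown effect), and the quantity described is the drug effect minus the knockdown effect, on the log2(FPKM + 1) scale. FPKM is the number of fragments of a gene divided by its length and by the sequencing depth. Of 61248 loci in the deposited table, 14828 were tested, since 3 or more of the 12 libraries in these 4 groups held them at 1 FPKM or above. Of these, 6256 also had a mean of at least 5 FPKM in 1 group of each arm, so that either arm could show a change, and these 6256 genes are described below. They include 5860 protein-coding genes. In 5521 of them all 4 groups reached a mean of 5 FPKM, and in the other 735 an arm reached it in 1 group only. Just inside this limit, PLEKHA2 had a difference of -0.58, and just outside it CUL4B had -0.33.

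All libraries came from the lung adenocarcinoma line NCI-H1975, whose EGFR gene is mutated, and the 4 groups had 3 libraries each out of 15 in the series. Per the labels, the groups were control, Almonertinib (a drug that binds mutant EGFR and blocks its kinase), siNC (taken here as an siRNA without a target) and siEGFR (EGFR-directed siRNA), and the other 3 libraries, from cells given EGF, were used only for values set beside the rest. The labels give no dose, no time, no siRNA sequence and no culture condition, and they do not say whether control cells received a vehicle or whether the siRNA groups were grown alongside the others. Replicates are not stated to be separate cultures, so a p-value here sets an effect against a spread among libraries that may be purely technical.

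EGFR is a receptor tyrosine kinase that passes growth factor signals through RAS to the ERK kinases and through PI3K to AKT. An inhibitor blocks the kinase and leaves the receptor protein in place, whereas an siRNA degrades the messenger RNA and lets the protein fall as it turns over. ERK signalling raises a set of short-lived transcripts that includes FOSL1, a subunit of the AP-1 transcription factor, CCND1, which drives entry into the cell cycle, and the DUSP and SPRY genes, which restrain the pathway.

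The 12 libraries held 18009903 to 34908302 reads, and the epithelial markers KRT8 (188 to 280 FPKM), KRT18, KRT19, EPCAM and CDH1 were present in each of them. Of 10 leukocyte markers only CD14 reached a mean of 1 FPKM (6.67 to 40.9 FPKM in control, almonertinib and siNC and 2.99 to 4.1 FPKM in siEGFR), and PTPRC, which marks leukocytes in general, stayed at or below 0.062 FPKM. The summed leukocyte list lay at 30.9 to 41.9 FPKM in control and almonertinib. It lay at 7.6 to 8.17 FPKM in siNC and 4.11 to 5.24 FPKM in siEGFR, so the larger gap was between the arms. Of 9 fibroblast markers 3 reached it, COL1A1, COL1A2 and PDGFRB, and the summed fibroblast list lay at 337 to 383 FPKM in control and almonertinib and at 138 to 196 FPKM in the siRNA groups. The median SD of a gene within a group, in log2 units, was 0.146 in control and 0.138 in almonertinib, against 0.0596 in siNC and 0.0508 in siEGFR. The knockdown effect of a gene was therefore measured with a median SE of 0.039 and the drug effect with 0.112. Control 1 lay apart from its fellow replicates on the second principal component (6.25% of the variance), and almonertinib 3 on the third (4.04%). The counts of a gene list in the difference are therefore also given without this pair where they move by more than 1.5 times and by at least 2 genes. The fit without this pair called more of the 6256 genes in both directions. For some lists the counts with other scalings are added.

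The arms did not start from the same expression state. Over the 12 libraries, the first principal component accounted for 81.2% of the variance and separated the siRNA groups from control and almonertinib. EGFR itself (ENSG00000146648) stood at 28, 22.3 and 22.8 FPKM in control and at 49.4, 49.4 and 49.8 FPKM in siNC. With almonertinib EGFR was at 19.2, 15.4 and 15.5 FPKM, and with siEGFR at 29.9, 28.6 and 28.9 FPKM. The siEGFR libraries all lay below siNC, at 58.8% of its mean, yet above every control and almonertinib library. EGFR fell in the knockdown arm (log2 change -0.75 ± 0.03, SE, limma, adjusted p = 3.24e-05) and was called neither in the drug arm (-0.52 ± 0.13, adjusted p = 0.0653) nor in the difference (0.23 ± 0.13, 95% interval -0.07 to 0.53, adjusted p = 0.28). Without control 1 and almonertinib 3 the EGFR difference was 0.38 and was called.

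The drug effect and the knockdown effect were only weakly correlated across genes. Over the 6256 genes the 2 effects, which share no library, had a Pearson r of 0.08 and a Spearman rho of 0.10; these are values across genes, which are not independent replicates. Of the 6256 genes, 365 were called higher and 558 lower in the difference, which is 14.8%, against 12.4% of all genes tested (5.3% higher and 7.07% lower). The share was 19.3% in the 735 genes that reached 5 FPKM in 1 group only of an arm and 14.1% in the 5521 with all groups at that level. A gene kept only through the group in which it is high had to differ, so nothing is read from these shares. A gene higher in the difference rose more, or fell less, with the drug than with the knockdown. The differences were mostly moderate. Their median size among called genes was 0.48 on the log2 scale, and 18 genes were at least 2-fold higher and 21 at least 2-fold lower. Scaling the libraries otherwise moved the split between the directions. Of the called genes 39.5% were higher with FPKM as deposited, 20.9% with TPM scaling and 55.5% with median-ratio scaling, and TPM scaling shifted the median difference of all genes tested by -0.10. Without control 1 and almonertinib 3 the counts rose to 756 higher and 1484 lower, and without almonertinib 3 alone to 577 and 1023. Leaving out any siRNA library gave 202 to 257 genes higher, and the lowest of these counts, without siEGFR 3, went with 285 lower.

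**Figure D1:**
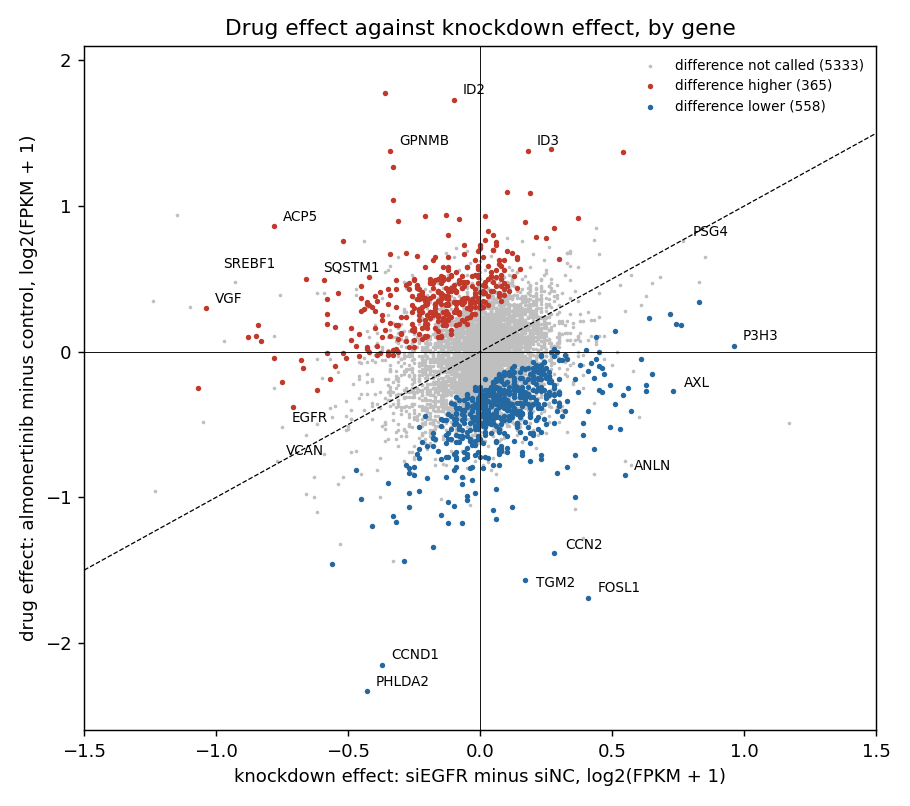
Drug effect (almonertinib minus control, vertical axis) against knockdown effect (siEGFR minus siNC, horizontal axis), both on the log2(FPKM + 1) scale, for the 6256 genes; red points were called higher and blue points lower in the difference, and the dashed line marks equal effects. Called points lie away from the dashed line, which follows from calling the difference; 2 genes outside the axes are not shown.

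By itself the drug arm gave 152 genes higher and 260 lower among the 6256, or 6.59% (2.43% higher and 4.16% lower), against 5.81% of all genes tested (2.72% higher and 3.09% lower). The knockdown arm gave 951 higher and 863 lower, or 29% (15.2% higher and 13.8% lower), against 20.9% (11% higher and 9.9% lower). The drug counts depended on which libraries were used. Without control 1 and almonertinib 3 together they rose to 294 higher and 473 lower. With any single control or almonertinib library left out they fell to between 4 and 48 genes higher and between 12 and 99 lower, and in a fit over 12 libraries they rose to 827 and 1296. The knockdown counts fell in that shared fit to 113 and 191. With TPM scaling 18.8% of the genes called in the drug arm were higher, against 36.9% as deposited, and with median-ratio scaling 46.4%.

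Calls in the 2 arms sorted the 923 genes called in the difference into unequal classes. Of 206 genes called in the drug arm only, 198 were also called in the difference, 77 higher and 121 lower. Of 1608 genes called in the knockdown arm only, 325 were, 147 higher and 178 lower. A further 63 genes were called in both arms with opposite directions, 26 of them higher with the drug and 37 lower. All 63 were called in the difference, which follows largely from the definition, since opposite effects add up in a difference. Called or not, the fitted arm effects had opposite signs in 47.5% of all the genes described here. Among the 923 genes called in the difference this share was 71.5%. The classes were counted among the genes described here only. Of 143 genes called in the same direction in both arms, 63 with the larger effect under the drug and 1 with the larger effect under the knockdown were called in the difference. The remaining 273 were called in the difference and in neither arm. These classes mix fits, since the difference was called in a shared fit of the 12 libraries and each arm in its own libraries only. With the arms also called in the shared fit, the drug calls rose to 827 higher and 1296 lower. The knockdown calls fell to 113 and 191. Class sizes therefore depend on the fit and do not by themselves show which agent acted. A gene that missed the threshold in an arm is not thereby shown to be unaffected there. The opposite class depends on single libraries: without any single control or almonertinib library it held 1 to 7 genes in the drug-higher direction and 3 to 16 in the drug-lower direction. Without control 1 and almonertinib 3 together it held 47 and 65.

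FOSL1 (ENSG00000175592) had the most negative difference of the 6256 genes, and its levels moved in opposite directions in the 2 arms. It stood at 5.45, 7.27 and 6.89 FPKM in control and at 1.6, 0.978 and 1.42 FPKM with almonertinib, 20.4% of the control mean. In siNC it was far higher, at 61.6, 60.1 and 57.2 FPKM, and it rose further to 81.8, 80.2 and 77.1 FPKM in siEGFR. The groups of each arm did not overlap, and the lowest siNC library exceeded the highest control library by a wide margin. FOSL1 fell with the drug (log2 change -1.69 ± 0.15, limma, adjusted p = 0.00443), rose with the knockdown (0.41 ± 0.04, adjusted p = 0.000797) and had a difference of -2.11 ± 0.15 (95% interval -2.45 to -1.77, adjusted p = 3.89e-05). Over 26 alternative settings the adjusted p of the difference stayed between 3.49e-06 and 0.0051.

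AXL (ENSG00000167601), a receptor tyrosine kinase known for carrying survival signals in EGFR-inhibited lung cancer cells, had a negative difference that came mainly from the knockdown arm. Its levels were 11.9, 13.5 and 12.3 FPKM in control and 10.7, 10.2 and 9.73 FPKM with almonertinib. They were 17.1, 17.4 and 17.2 FPKM in siNC and 29.3, 28.6 and 29.6 FPKM in siEGFR. All siEGFR libraries were above all others, and the almonertinib libraries lay just below control without overlap. AXL rose with the knockdown (0.73 ± 0.03, adjusted p = 3.24e-05) and was not called in the drug arm (-0.27 ± 0.08, adjusted p = 0.101); the difference was -1.00 ± 0.08 (limma, adjusted p = 4.85e-05).

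SREBF1 (ENSG00000072310), which encodes a transcription factor of fatty acid and cholesterol synthesis genes, differed the other way. Its levels were 29.8, 36.8 and 37 FPKM in control and 52.8, 53.1 and 42.5 FPKM with almonertinib. They were 18.2, 19.3 and 17.9 FPKM in siNC and 11.7, 11.6 and 10.7 FPKM in siEGFR. The almonertinib libraries were the highest and the siEGFR libraries the lowest of the 12, with no overlap in either arm. The fall with the knockdown was called (-0.66 ± 0.04, limma, adjusted p = 0.000275), the drug effect was not (0.50 ± 0.13, adjusted p = 0.0703), and the difference was 1.17 ± 0.14 (adjusted p = 0.000786).

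SQSTM1 (ENSG00000161011), which encodes the autophagy receptor p62, was called in opposite directions in the 2 arms. It was at 62.4, 59 and 61.6 FPKM in control and rose to 81, 82.6 and 88.4 FPKM with almonertinib. It was at 39.2, 40.2 and 40.1 FPKM in siNC and fell to 33.4, 34.1 and 33.4 FPKM in siEGFR. No library of one group lay within the range of another. The drug effect was 0.45 ± 0.08 (limma, adjusted p = 0.0276), the knockdown effect -0.24 ± 0.03 (adjusted p = 0.00148) and the difference 0.69 ± 0.07 (adjusted p = 0.000239).

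**Figure D2:**
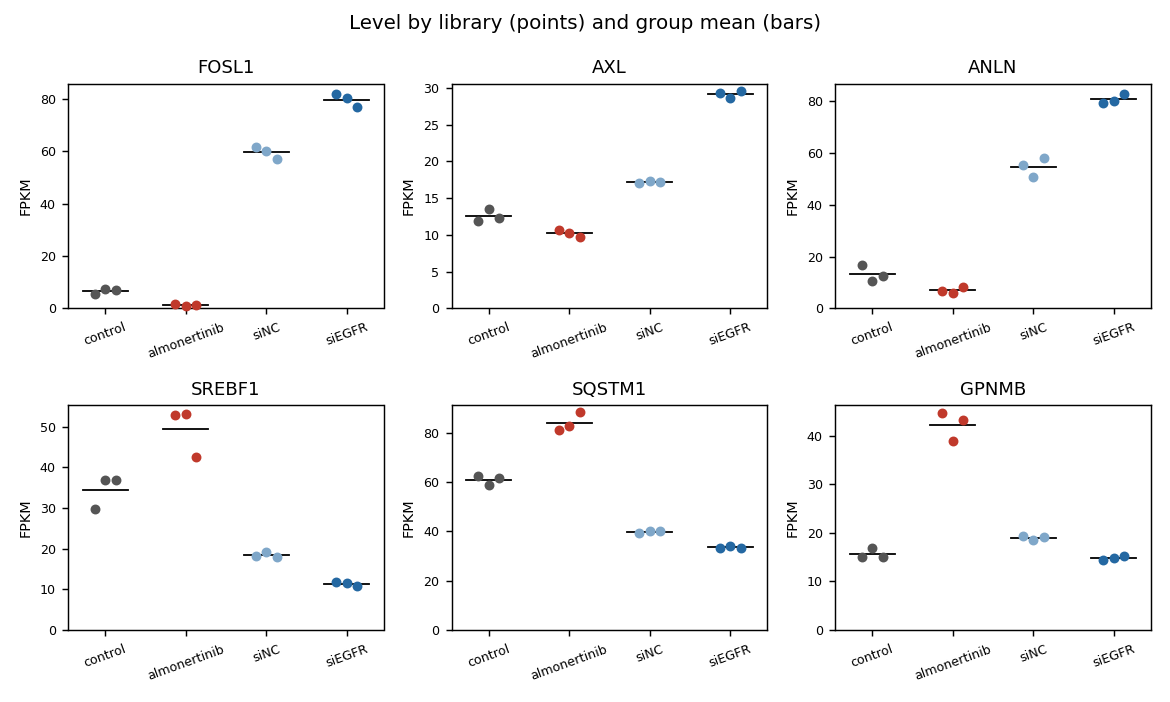
Level in FPKM (vertical axes, starting at 0) in each of the 3 libraries of control, almonertinib, siNC and siEGFR (points) with the group mean (bars), for FOSL1, AXL, ANLN, SREBF1, SQSTM1 and GPNMB. FOSL1 and ANLN start far higher in siNC than in control and move in opposite directions in the 2 arms, whereas GPNMB starts at similar levels, with means of 15.6 FPKM in control and 19 FPKM in siNC.

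The largest positive differences named by the rule were those of ID2, GPNMB, ACP5, VGF, ID3, ARRB2, ZNF114 and SREBF1. ID2 and ID3 encode proteins that bind basic helix-loop-helix factors and keep them from DNA. ID2 was at 5.61, 7.13 and 6.25 FPKM in control and at 22.3, 22.7 and 24.5 FPKM with almonertinib, while siNC (18.4, 18.3 and 19.3 FPKM) and siEGFR (18.4, 16.5 and 17.3 FPKM) overlapped. It had the largest difference of the genes that the naming rule took, which passed over the pseudogenes TPSP2 (2.14, called) and RN7SL5P (3.69, adjusted p = 0.179, not called) among others. The ID2 difference was 1.82 ± 0.11 (limma, adjusted p = 8.61e-06), and the knockdown effect of -0.10 was not called (adjusted p = 0.176). ID3 rose in both arms, by 1.38 with the drug and 0.18 with the knockdown, and its difference was 1.21 ± 0.10. GPNMB, a transmembrane glycoprotein of lysosomes and melanosomes, was at 15.1, 16.9 and 15 FPKM in control and at 44.7, 38.8 and 43.3 FPKM with almonertinib. In siNC it was at 19.3, 18.6 and 19.2 FPKM and in siEGFR at 14.4, 14.9 and 15.2 FPKM, so the arms moved apart from similar starting levels. GPNMB rose with the drug and fell with the knockdown, and its difference was 1.72 ± 0.09 (limma, adjusted p = 4.15e-06). ACP5, the lysosomal tartrate-resistant acid phosphatase, behaved likewise. It went from 8.02, 10.6 and 9.32 FPKM to 18.5, 18.4 and 16.1 FPKM with the drug, from 22.8, 25.2 and 22.5 FPKM to 14, 13.5 and 12.1 FPKM with the knockdown, and had a difference of 1.65 ± 0.14 (adjusted p = 7.7e-05). The other 3 of this group were VGF, a secreted neuropeptide precursor, ARRB2, the scaffold beta-arrestin-2, and ZNF114, a zinc finger gene. VGF differed mainly through the knockdown arm, where it fell from a mean of 215 to 105 FPKM (-1.04), and its control libraries (4.51, 8.14 and 5.88 FPKM) overlapped the almonertinib libraries. ARRB2 rose by 0.93 with the drug and fell by 0.21 with the knockdown, and ZNF114 rose by 1.39 and by 0.27.

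After FOSL1, the most negative called differences were those of PHLDA2, CCND1, TGM2 and CCN2. PHLDA2, a pleckstrin-homology domain protein, was at 38.2, 43.3 and 42.6 FPKM in control and 6.37, 8.17 and 7.77 FPKM with almonertinib. In siNC it was at 79.3, 78.6 and 76.6 FPKM and in siEGFR at 60.8, 56.3 and 56.1 FPKM. It fell in both arms, to 18% of control with the drug and to 73.9% of siNC with the knockdown, and the difference was -1.90 ± 0.12 (limma, adjusted p = 1.08e-05). CCND1, the cyclin D1 gene, fell from 20, 18.9 and 16.6 FPKM to 3.28, 3.51 and 3.33 FPKM with the drug. In the knockdown arm it fell from 74.6, 75.3 and 76.2 FPKM to 58.5, 58.2 and 57.7 FPKM, so every siEGFR library held more CCND1 than any control library. The CCND1 difference was -1.78 ± 0.09 (limma, adjusted p = 2.45e-06).

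TGM2 and CCN2 moved in opposite directions from nearly equal starting levels. TGM2, the crosslinking enzyme tissue transglutaminase, went from 17.3, 20.7 and 17.9 FPKM to 5.92, 6.19 and 4.83 FPKM with the drug and from 20.8, 21.5 and 20.3 FPKM to 24.1, 23.6 and 22.9 FPKM with the knockdown. CCN2, a matrix protein induced by the YAP coactivator, went from 15.2, 18.2 and 14.4 FPKM to 6.2, 5.64 and 4.73 FPKM and from 17.1, 17.4 and 17.3 FPKM to 20.7, 21.7 and 21.3 FPKM. Neither gene overlapped between the groups of an arm. The differences were -1.73 ± 0.12 for TGM2 and -1.66 ± 0.13 for CCN2. The cytokinesis scaffold ANLN (-1.40 ± 0.20) also fell with the drug and rose with the knockdown, but started at 4.12 times the control mean in siNC. ENC1, an actin-binding protein, fell with the drug (-1.15) and was not called in the knockdown arm (0.06), and its difference was -1.21 ± 0.10.

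**Figure D3:**
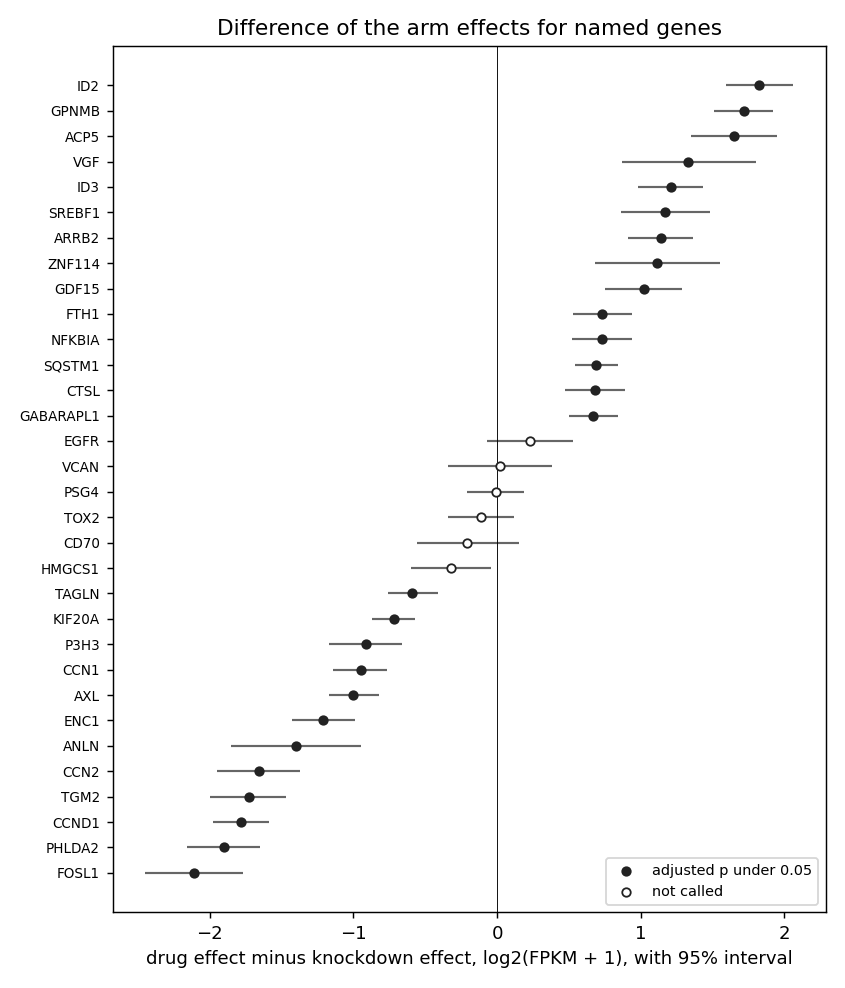
Drug effect minus knockdown effect (horizontal axis, log2(FPKM + 1) scale) with its 95% interval for 32 genes named in the text; filled points have an adjusted p under 0.05 and open points do not. The intervals of ID2 and FOSL1, at the top and the bottom, lie entirely beyond 1 in size.

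The 26 genes that rose with the drug and fell with the knockdown included genes of lysosomes, iron storage and water transport. Of the 6 with the largest smaller effect, ACP5 and GPNMB are given above. AQP3, a channel for water and glycerol, went from 106, 112 and 122 FPKM to 153, 164 and 148 FPKM with the drug and from 23.1, 21.3 and 20.7 FPKM to 16.6, 14.9 and 15.2 FPKM with the knockdown. FTH1, the ferritin heavy chain that stores iron, went from 1130, 1110 and 1083 FPKM to 1386, 1506 and 1469 FPKM and from 632, 649 and 636 FPKM to 555, 486 and 472 FPKM. Neither gene overlapped between the groups of an arm, and their differences were 0.90 ± 0.10 and 0.73 ± 0.09. The secreted lipocalin PAEP (1.00 ± 0.12) and the histone gene H2BC5 (0.81 ± 0.10) complete the 6. H2BC5 is a member of a family of near-identical histone genes, and how reads were shared among them is not given. Chosen after their values were seen, the lysosomal genes PSAP (0.70 ± 0.09), GLMP (0.64 ± 0.08) and RILP (0.96 ± 0.15) were in the same class, as was the autophagy gene GABARAPL1 (0.67 ± 0.08).

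The 37 genes that fell with the drug and rose with the knockdown included matrix and adhesion genes. Besides FOSL1 and ANLN, the rule took MMP24, SRGN and CCN1. MMP24, a membrane-bound metalloprotease, went from 14.3, 16.7 and 15.7 FPKM to 10.7, 11.2 and 9.86 FPKM with the drug and from 6.97, 7.78 and 7.15 FPKM to 11.1, 9.85 and 11 FPKM with the knockdown. CCN1, a matrix protein of the same family as CCN2, went from 17.3, 20.2 and 19 FPKM to 12.1, 12.2 and 12.8 FPKM and from 39.6, 42.2 and 41.2 FPKM to 55.1, 53.4 and 53 FPKM. In both genes the almonertinib libraries lay below all control libraries and the siEGFR libraries above all siNC libraries. The differences were -1.01 ± 0.10 for MMP24, -0.87 ± 0.13 for SRGN, a proteoglycan of secretory granules, and -0.95 ± 0.08 for CCN1. The carboxypeptidase CPA4 (-1.07 ± 0.07) and the transferrin receptor TFRC (-1.12 ± 0.15), chosen after their values were seen, belonged here too. CPA4 went from 47.7, 45.6 and 44.5 FPKM to 29, 26.6 and 27.7 FPKM with the drug and from 44.6, 45.8 and 44.3 FPKM to 56.9, 58.9 and 57.8 FPKM with the knockdown, so it left nearly the same level in opposite directions.

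Another group of genes was called in the knockdown arm and changed more there than with the drug. GDF15, a secreted stress cytokine, stood at 19.7, 21.3 and 23 FPKM in control and 24.2, 27.8 and 21.4 FPKM with almonertinib, which overlapped. It fell from 7, 6.83 and 6.51 FPKM to 3.42, 3.24 and 3.39 FPKM with the knockdown, and its difference was 1.02 ± 0.12 (limma, adjusted p = 0.000765). FBP1, an enzyme of gluconeogenesis, likewise fell with the knockdown only (-0.88, against 0.10 with the drug) and differed by 0.98 ± 0.10. In the negative direction P3H3, a collagen prolyl hydroxylase, rose from 4.17, 3.68 and 3.62 FPKM to 8.43, 8.4 and 8.26 FPKM with the knockdown, while its control (5.11, 5.88 and 5.94 FPKM) and almonertinib libraries (5.94, 6.53 and 5.13 FPKM) overlapped. Its difference was -0.91 ± 0.12 (limma, adjusted p = 0.00108). DIO2, a thyroid hormone deiodinase, rose from 4.16, 4.03 and 4.49 FPKM to 6.86, 6.63 and 6.83 FPKM with the knockdown, and its control and almonertinib libraries overlapped. Its difference was -0.98 ± 0.17 (limma, adjusted p = 0.00525).

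Other genes moved the same way in both arms. Of the 143 genes called in the same direction in both, 79 were not called in the difference, and the 6 with the largest smaller effect were PSG4, VCAN, HMGCS1, CD70, ITGA2 and TOX2. PSG4, a pregnancy-specific glycoprotein whose family has near-identical members, rose from 4.96, 4.53 and 4.81 FPKM to 8.81, 8.01 and 9.45 FPKM with the drug and from 5.16, 5.62 and 5.25 FPKM to 9.91, 9.51 and 10.1 FPKM with the knockdown. Both ratios of means came to 184%, and the difference was -0.01 with a 95% interval of -0.21 to 0.19. The matrix proteoglycan VCAN fell in both arms, to 58.9% and 57.8%, and differed by 0.02 (interval -0.34 to 0.38). HMGCS1, an early enzyme of sterol synthesis, fell by 0.98 and 0.66 and differed by -0.32 (interval -0.60 to -0.04, adjusted p = 0.125). CD70, a TNF family ligand, rose by 0.65 and 0.85 (difference -0.21, interval -0.56 to 0.15). TOX2 (-0.11, interval -0.34 to 0.12) and the integrin ITGA2 (-0.47, interval -0.93 to -0.01) fell in both. A missed threshold does not show that the effects were equal, and the intervals give the differences still possible.

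Gene lists were counted next. Since they were drawn up with earlier results of these data known, they carry no test. They are read against the 5.83% of the 6256 genes called higher and 8.92% called lower, and their median difference of -0.06. Counts without control 1 and almonertinib 3 are read against 756 higher and 1484 lower of the 6256 in that fit. Arm counts stand beside 2.43% higher and 4.16% lower with the drug, and 15.2% and 13.8% with the knockdown. With TPM scaling 244 of the 6256 were higher and 924 lower, and with median-ratio scaling 447 and 359. Signs of the difference are read against 2662 of the 6256 genes with a positive one. Signs also depend on the scaling, since the median of the 6256 was -0.15 with TPM scaling and 0.03 with median-ratio scaling. The ERK output list had the largest median drug effect of the lists. Of its 23 genes 22 were tested and 13 belong to the 6256. Of these 13, 9 fell with the drug and 9 with the knockdown, while 1, FOSL1, rose with the knockdown. The difference was lower in 9 and higher in 0, and was negative in all 13. The median was -0.97 for the drug effect, -0.26 for the knockdown effect and -0.61 for the difference. Among the phosphatases and inhibitors that restrain ERK, chosen after their values were seen, DUSP4 went from 10.3, 8.96 and 9.79 FPKM to 3.65, 3.5 and 3.75 FPKM with the drug and from 8.78, 8.98 and 9.52 FPKM to 6.24, 6.42 and 7.1 FPKM with the knockdown. DUSP5 fell by 1.01 and 0.45, and the receptor EPHA2 by 1.34 and 0.18, with differences of -0.56 ± 0.11 and -1.16 ± 0.12. The transcription factor ETV5 fell with the drug by 0.97 and was at -0.02 in the knockdown arm. SPRY2, an inhibitor of the pathway, fell with the knockdown by 0.26, had a drug effect of -0.28 (adjusted p = 0.108) and a difference of -0.02. DUSP6, whose level in the drug arm was too low for the 6256, had effects of -1.23 and -0.98 and a difference of -0.25 ± 0.08 (adjusted p = 0.0722). Of 5 genes that restrain EGFR itself, 4 were lower in the difference, among them ERRFI1, which binds the EGFR kinase domain (-0.73 ± 0.15), LRIG1 (-0.53) and the phosphatase PTPN1 (-0.46). LRIG1 missed the threshold with median-ratio scaling and without siNC 2, siNC 3, siEGFR 1 or siEGFR 2 (adjusted p up to 0.101).

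Genes of cell division had opposite median effects in the arms. Of 18 mitosis genes among the 6256, 13 rose and 0 fell with the knockdown, whereas 3 fell and 0 rose with the drug. The difference was lower in 9 and higher in 0, with a median of -0.60, and it was negative in all 18; without control 1 and almonertinib 3, 17 were lower. KIF20A, a kinesin of cytokinesis, went from 18.2, 18 and 18 FPKM to 13.9, 12.7 and 13.5 FPKM with the drug and from 42.2, 44 and 42.8 FPKM to 52.3, 53.7 and 55.2 FPKM with the knockdown. Its groups did not overlap, and the difference was -0.72 ± 0.07 (limma, adjusted p = 0.000169). CCNB1, cyclin B1, had effects of -0.36 and 0.22. MKI67, the proliferation marker (chosen after its values were seen), fell with the drug by 0.72 and was at -0.05 in the knockdown arm. Levels of these genes differed widely between the arms: MKI67 was at 5.06 to 7.85 FPKM in control and at 36.8 to 38 FPKM in siNC. Of 14 genes of the G1/S transition and DNA replication, 4 were lower in the difference, among them UHRF1, which maintains DNA methylation (-1.19 ± 0.16), and MCM3, a subunit of the replicative helicase (-0.46, missed with median-ratio scaling). Without control 1 and almonertinib 3, 9 of the 14 were lower. CDT1, which loads that helicase, was the 1 gene higher (0.91 ± 0.12): it rose from 2.73, 3.7 and 3.04 FPKM to 7.12, 7.24 and 6.31 FPKM with the drug, while siNC (16.5, 17.3 and 16.3 FPKM) and siEGFR (16.8, 18.1 and 16.1 FPKM) overlapped.

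Among targets of YAP and TEAD and genes of the actin cytoskeleton, calls in the difference were lower ones, but most genes of either list passed in neither direction. YAP is a coactivator that responds to cell density and tension and binds DNA through TEAD factors. Of 13 YAP and TEAD targets, 5 were lower and 0 higher (median -0.34), with 5 lower and 1 higher in the drug arm and 7 higher and 3 lower in the knockdown arm; without control 1 and almonertinib 3, 8 were lower. AXL, CCN1 and CCN2, described above, are the 3 with the smallest p. Of 14 actin and smooth muscle genes, 6 were lower and 0 higher (median -0.40), and 9 rose with the knockdown. TAGLN, which encodes the actin-binding protein transgelin, went from 5.83, 5.65 and 5.73 FPKM to 10.3, 10.8 and 10.2 FPKM with the knockdown, and from 4.23, 4.75 and 4.96 FPKM to 5.41, 5.29 and 5.43 FPKM with the drug, which was not called. MYL9, a myosin light chain (chosen after its values were seen), also rose with the knockdown by 0.83 and had a drug effect of 0.34 (adjusted p = 0.0745). The differences were -0.59 ± 0.08 and -0.49 ± 0.09, so both genes were lower in the difference through the knockdown arm. The nonmuscle myosin MYH9 (-0.57) and the calponin CNN3 (-0.56) had drug effects below 0, of -0.32 and -0.45. In the siRNA groups the collagen genes of the fibroblast list moved along with these genes: COL1A2 was at 129, 135 and 129 FPKM in siNC and 177, 180 and 178 FPKM in siEGFR, while COL3A1 stayed at or below 0.272 FPKM in all 12 libraries. The part of other cells in these values was not tested.

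Of the sterol synthesis genes called in the difference all but 1 were lower. SREBF1, described above, was higher, whereas SREBF2, which encodes a related factor, was not called (-0.03, limma, adjusted p = 0.833). SREBF2 had a drug effect of -0.27 (adjusted p = 0.141) and a knockdown effect of -0.23 (adjusted p = 0.00262). Of 18 cholesterol synthesis genes, 10 fell with the drug and 7 with the knockdown, and none rose in either arm. The difference was lower in 7, higher in 1 and not called in the rest (median -0.40); without control 1 and almonertinib 3, 12 were lower. ACAT2, an acetyl-CoA acetyltransferase, went from 11.3, 11.7 and 12.2 FPKM to 5.89, 6.3 and 7.05 FPKM with the drug and from 10.5, 11.5 and 10.2 FPKM to 10.5, 11.2 and 11.7 FPKM with the knockdown. The drug groups lay far apart while the siRNA groups overlapped and differed by 0.05 (adjusted p = 0.573), and the difference was -0.83 ± 0.10 (limma, adjusted p = 0.000759). LSS, which closes the sterol ring, was the exception: its difference was 0.79 ± 0.17 and its drug effect 0.58 (adjusted p = 0.0722). Of 12 fatty acid synthesis genes 4 were lower and 0 higher, and without control 1 and almonertinib 3, 7 were lower. ELOVL6, a fatty acid elongase, rose with the knockdown by 0.43 and differed by -1.10 ± 0.22; ACLY, which makes cytosolic acetyl-CoA, fell with the drug by 0.63 and was at 0.01 with the knockdown. The desaturase SCD fell in both arms, by 0.57 and 0.66, and was not called in the difference (0.09, adjusted p = 0.461). LSS, SCD and SREBF2 were chosen after their values were seen. Of 11 SREBP regulators 3 were higher and 2 lower (5 higher without that pair). MYLIP, which marks the LDL receptor for degradation, was higher (0.48) and INSIG1, which retains SREBP in the endoplasmic reticulum, lower (-0.38).

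Of 24 lysosome and autophagy genes, 7 were higher and 1 lower in the difference, against the 5.83% and 8.92% above, and the median was 0.17 (0.08 with TPM scaling and 0.27 with median-ratio scaling). In the drug arm 3 rose and 0 fell, and in the knockdown arm 4 rose and 8 fell. SQSTM1, GABARAPL1 and the cathepsin CTSL led by p. GABARAPL1, an LC3-like protein of the autophagosome, went from 24.8, 25 and 24.9 FPKM to 33.7, 33 and 35.4 FPKM with the drug and from 6.39, 6.52 and 5.89 FPKM to 5.5, 5.08 and 4.96 FPKM with the knockdown. CTSL was at 41.6, 48.9 and 43.8 FPKM in control and 54, 57.4 and 51.9 FPKM with almonertinib, which was not called, and fell from 83.2, 83.8 and 76.9 FPKM to 59.8, 62.1 and 61.4 FPKM with the knockdown. In both genes the groups of an arm did not overlap. The other 4 higher genes were CTSA (0.63), CTSD (0.58), NEU1 (0.50) and OPTN (0.43).

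Promoters were read for short motifs, since many lysosomal genes are known to carry the CLEAR element that the factors TFEB and TFE3 bind. RefSeq promoters (GRCh38.p14, from 250 bases before to 50 after the start) were found for 4899 of the 6256 genes. The CLEAR core TCACGTGA, which reads the same on both strands, was in 4 of 19 promoters found for the lysosome and autophagy list (21.1%), against 2.22% of the 4899 and 1.04% of all 27305. The 4 genes were MCOLN1, LAMP1, CTSA and ATP6V0D1, and of these only CTSA was called in the difference; LAMP1 was at 0.07, ATP6V0D1 at -0.07 and the calcium channel MCOLN1 at 0.51 (adjusted p = 0.071). Among genes called in the difference, the CLEAR core was in 2.6% of 269 promoters of genes higher and 1.62% of 431 of genes lower, near the 2.22% of the 4899. AP-1 sites, TGANTCA on either strand, were in 4.83% of the higher set, in 3.94% of the lower set and in 3.94% of the 4899, against 7.76% of all promoters. An AP-1 site can share bases with the antioxidant element TGACNNNGC, which was in 16.7% of the higher set, 15.8% of the lower set and 16.5% of the 4899. In the lysosome and autophagy list the antioxidant element was in 31.6% of 19 promoters. The sterol element TCACNCCAC was in 1.06% of the 4899, 0.743% of the higher set and 1.16% of the lower set. It was in 0 of 12 promoters of the cholesterol synthesis list. Of 17 promoters in the drug-higher opposite class, 2 held an AP-1 site and 0 the CLEAR core, antioxidant or sterol element. Of 31 in the drug-lower opposite class, 2 held an AP-1 site, 7 the antioxidant element, 3 the sterol element and 0 the CLEAR core. The shares of the higher and lower sets lay close to each other for the AP-1 and antioxidant motifs. The 250 bases before the start are shown for 4 genes, with the motif in capitals, all on the plus strand: CTSA (chr20:45891085-45891334) and MCOLN1 (chr19:7522374-7522623) carry the CLEAR core, and GPNMB (chr7:23246525-23246774) and CPA4 (chr7:130292911-130293160) carry AP-1 sites. The last pair is shown because GPNMB rose and CPA4 fell with the drug. The CLEAR core begins 26 bases before the start in CTSA and 42 and 15 bases before it in MCOLN1. The AP-1 site begins 134 bases before the start in GPNMB and 48 and 15 bases before it in CPA4. A match in these letters is a description and not a measured site.
CTSA: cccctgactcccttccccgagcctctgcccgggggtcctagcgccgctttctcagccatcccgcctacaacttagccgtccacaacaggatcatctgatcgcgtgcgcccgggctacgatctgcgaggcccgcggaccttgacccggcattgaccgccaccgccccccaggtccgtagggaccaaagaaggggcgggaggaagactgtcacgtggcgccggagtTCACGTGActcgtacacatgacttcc
MCOLN1: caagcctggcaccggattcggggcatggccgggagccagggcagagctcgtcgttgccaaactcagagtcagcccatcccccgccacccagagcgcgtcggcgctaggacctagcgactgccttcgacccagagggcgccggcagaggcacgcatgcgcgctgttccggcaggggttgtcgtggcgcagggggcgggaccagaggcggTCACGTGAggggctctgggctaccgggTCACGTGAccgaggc
GPNMB: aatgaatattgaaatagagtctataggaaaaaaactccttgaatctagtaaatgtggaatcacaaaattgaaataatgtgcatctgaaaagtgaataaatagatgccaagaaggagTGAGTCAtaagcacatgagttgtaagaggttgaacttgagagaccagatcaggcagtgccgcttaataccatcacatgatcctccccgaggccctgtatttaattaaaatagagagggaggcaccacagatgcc
CPA4: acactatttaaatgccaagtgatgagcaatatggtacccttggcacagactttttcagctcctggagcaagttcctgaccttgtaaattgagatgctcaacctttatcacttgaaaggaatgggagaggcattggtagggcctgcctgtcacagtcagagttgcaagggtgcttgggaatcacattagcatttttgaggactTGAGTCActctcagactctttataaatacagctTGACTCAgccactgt

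Smaller lists moved as follows. All 5 NF-kB targets among the 6256 fell with the knockdown, 0 were called in the drug arm, and 3 were higher in the difference. Calls were commoner in the knockdown arm, where 13.8% of the 6256 fell, than in the drug arm, where 4.16% fell. Of all 15 NF-kB targets tested, 3 were higher in the difference and 1, CXCL1 (-0.47), was lower. NFKBIA, the inhibitor that NF-kB induces against itself, went from 21.7, 22.2 and 22.1 FPKM to 16.3, 16 and 15.2 FPKM with the knockdown and was at 25.4, 28.1 and 31.3 FPKM in control and 34.4, 34.3 and 34.5 FPKM with almonertinib. The adhesion molecule ICAM1 fell by 0.68 with the knockdown and was at -0.06 with the drug, and the differences were 0.73 ± 0.09 and 0.62 ± 0.10. Of 18 ribosome biogenesis genes 7 were lower and 0 higher (median -0.32). Without control 1 and almonertinib 3, 13 were lower, with TPM scaling 9 and with median-ratio scaling 4. NOLC1, a nucleolar chaperone, went from 24.5, 21.6 and 21.5 FPKM to 13.7, 12.2 and 13.7 FPKM with the drug, while siNC (71, 69.2 and 72.8 FPKM) and siEGFR (71.2, 70.7 and 75.1 FPKM) overlapped. The 28 ribosomal protein genes had a median of 0.25, and 4 were higher and 0 lower. Without control 1 and almonertinib 3, 12 were higher, with TPM scaling 2 and with median-ratio scaling 5. Of those named by the rule, RPL30 and RPS19 missed the threshold in 1 and 10 of 26 alternative settings.

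**Figure D4:**
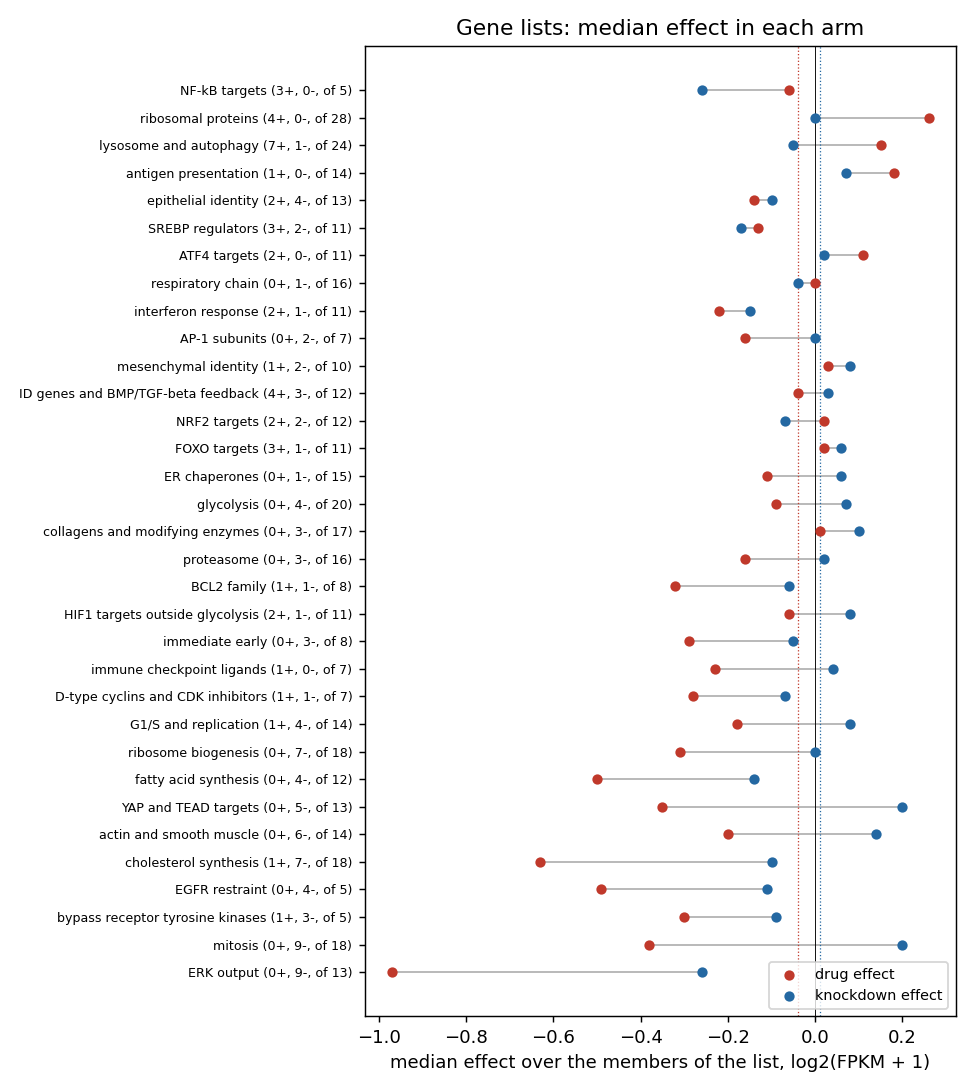
Median drug effect (red) and median knockdown effect (blue) on the log2(FPKM + 1) scale for gene lists with at least 5 genes among the 6256, ordered by the difference, with the number of genes called higher (+) and lower (-) in the difference in brackets; dotted lines mark the medians of all 6256 genes. The 2 points lie farthest apart for the ERK output list (-0.97 and -0.26), and on opposite sides of 0 for mitosis (-0.38 and 0.20).

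The starting levels of the arms are given beside the direction of the difference. Both use the control and siNC libraries, so they are not independent; no test was made and no value for unrelated levels was computed. Over the 6256 genes siNC lay above control in 56.1%, with a median log2 ratio of 0.08. Among genes lower in the difference this share was 70.8% and the median 0.34, and among genes higher in the difference it was 34.2% and -0.33. The levels of FOSL1 (9.12 times higher in siNC), VGF (34.8 times) and AQP3 (0.191 times) are examples with a wide gap, and TGM2 (1.12 times), CCN2 (1.08 times), FBP1 (1.08 times) and CPA4 (0.977 times) had nearly equal starting levels. In this design the agent cannot be told apart from whatever else distinguished the siRNA groups from the control and almonertinib groups.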

How the data were processed

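The authors deposited a single table of FPKM, unrounded, for 61248 loci, and the genome build hg19 and the tools DESeq2, featureCounts and HISAT2 are given per the submitters' processing notes, with neither version nor order. Ensembl IDs of 60463 loci could be given a symbol, and no gene positions on hg19 are given. FPKM values were whole multiples of a step per read (100% of positive values within 0.01 reads), which gave the read totals. Groups and replicate numbers follow the labels.

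Genes at 1 FPKM or above in 3 or more of 12 libraries were analysed as log2(FPKM + 1) by limma (version 3.58.1, R version 4.3.3), whose variance moderation was robust and followed the intensity. The difference (almonertinib minus control) minus (siEGFR minus siNC) used the 12 libraries and 8 residual degrees of freedom. Each arm was fitted in its own 6 libraries with 4, since the spread differed between the arms. Tests were two-sided, with Benjamini-Hochberg adjusted p under 0.05 over 14828 genes as the threshold; called, rose and fell refer to it. The added 1 understates changes of genes of low level. The steps were tested on simulated data.

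The comparison, the genes kept and the 39 gene lists were chosen with earlier results of these data known. The naming rule took EGFR, FOSL1, AXL, SREBF1 and SQSTM1, the 8 largest called differences each way and the 6 genes with opposite calls each way by the smaller arm effect. It further took 4 genes each way with the larger effect in the knockdown arm, 6 with equal directions and no called difference, and the 3 smallest p of each list with at least 3 calls. Clones and pseudogenes were passed over; not every gene named by the rule is printed, and a few genes and 1 list are not reported here. Promoters came from RefSeq (GRCh38.p14). Alternatives changed the pseudocount, filters, scaling, libraries, weights, trend, block, threshold and the count model.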

Additional observations from a re-analysis of the deposited data

Results flagged for a closer look

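FOSL1 was raised in the EGF libraries, which enter neither arm of the comparison. It was at 27.7, 31.5 and 31.2 FPKM with EGF against 5.45, 7.27 and 6.89 FPKM in control, a log2 change of 2.05 in a limma fit (adjusted p = 9.65e-05). The EGF libraries lay above every control and almonertinib library and below every siNC and siEGFR library (57.2 to 81.8 FPKM).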

How the results depend on the processing

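Precision was limited by the control and almonertinib libraries, whose spread was above that of the siRNA groups. Of the difference, 365 genes higher and 558 lower became 234 and 332 with a mean of 10 FPKM required, 150 and 220 at a threshold of 0.01, and 756 and 1484 without control 1 and almonertinib 3; the lower count became 924 with TPM scaling and 359 with median-ratio scaling. Leaving out each library in turn gave 202 to 577 genes higher and 285 to 1023 lower. In the drug arm the counts of 152 higher and 260 lower became 362 and 752 with 1 variance weight per group, 827 and 1296 in 1 fit of 12 libraries, 882 and 1343 in 1 fit of 15, 91 and 394 with TPM scaling, 36 and 61 with a filter of any value above 0, 93 and 154 with a mean of 10, 17 and 29 at 0.01, and 294 and 473 without control 1 and almonertinib 3; median-ratio scaling gave 140 lower. Leaving out each library gave 4 to 48 and 12 to 99. In the knockdown arm 951 higher and 863 lower became 113 and 191 in 1 fit of 12 libraries, 157 and 213 in 1 fit of 15, 597 and 514 with a mean of 10 and 391 and 429 at 0.01, and the filter above 0 gave 597 higher; leaving out each library gave 534 to 917 and 526 to 786. The opposite class of 26 drug-higher and 37 drug-lower genes became 68 and 95 with group weights, 14 and 62 with TPM scaling, 5 and 8 with the filter above 0, 4 and 4 at 0.01, and 47 and 65 without control 1 and almonertinib 3; its drug-lower count was 24 in 1 fit of 12 libraries, 24 without trend and robust moderation and 15 with median-ratio scaling. Leaving out each library gave 1 to 26 and 3 to 38. A stricter mean leaves fewer genes to count; otherwise the cause was not tested. With the replicate number as a block the drug arm had 35 genes higher and 60 lower and the opposite class 6 and 7. Same-numbered libraries did not deviate together in every pair (r from -0.17 to 0.549 for control and almonertinib and from -0.00164 to 0.0456 for siNC and siEGFR), and the main fit used no block. Libraries of control and almonertinib with unlike numbers also deviated together or apart. Their r ran from -0.599 (control 1 and almonertinib 2) to 0.575 (control 1 and almonertinib 3, the pair left out above). The cause was not tested. Over 99 named genes and 26 alternatives (2574 values), 2383 kept direction and side of the threshold, 190 missed the threshold, 1 newly passed it and 0 reversed.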

Other observations

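The gene groups not described above are counted here beside the 5.83% of the 6256 genes called higher and 8.92% called lower in the difference. Without control 1 and almonertinib 3, 756 of the 6256 were higher and 1484 lower. Counts without this pair are read against these. Of 20 glycolysis genes 4 were lower and 0 higher, and without control 1 and almonertinib 3, 8 were lower. With TPM scaling 5 were lower, and with median-ratio scaling 2 were lower and 1 higher. Of the 20, the 3 with the smallest p were PGAM1 (-0.56), PGK1 (-0.41, missed with median-ratio scaling) and LDHA (-0.55), enzymes of the later steps of the pathway. LDHA, lactate dehydrogenase A, was at 198, 178 and 195 FPKM in control and 137, 127 and 162 FPKM with almonertinib, and at 376, 366 and 376 FPKM in siNC and 395, 410 and 409 FPKM in siEGFR. Of 16 proteasome subunits 3 were lower and 0 higher, and without that pair 7 were lower. Of 16 respiratory chain genes 1 was lower and 0 higher. Of 14 antigen presentation genes 1 was higher and 0 lower; reads of the HLA genes may be shared between near-identical copies. Epithelial genes split: EPCAM, an adhesion molecule, was higher in the difference (0.74 ± 0.14) and KRT8, a keratin, lower (-0.51). EPCAM was at 5.73 to 7.76 FPKM in control and almonertinib, which overlapped, and fell from 35.1, 34.2 and 36.3 FPKM in siNC to 20.8, 19.4 and 19.8 FPKM in siEGFR. KRT8 missed the threshold with median-ratio scaling. Of the 13 epithelial genes 2 were higher and 4 lower, also with TPM scaling, and with median-ratio scaling 2 and 1. Of 10 mesenchymal genes 1 was higher and 2 were lower (4 lower without the pair).

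Among stress and survival lists, 2 of 12 NRF2 targets were higher and 2 lower. With TPM scaling 1 NRF2 target was higher and 3 were lower, and with median-ratio scaling 2 and 1. Further, 2 of 11 ATF4 targets were higher and 0 lower, and 3 of 11 FOXO targets were higher and 1 lower (3 lower without control 1 and almonertinib 3). Of 15 chaperones of the endoplasmic reticulum 0 were higher and 1 lower (3 lower without the pair), and of 8 BCL2 family genes 1 was higher and 1 lower (4 lower). Of 11 HIF1 targets outside glycolysis 2 were higher and 1 lower (4 lower without the pair). With TPM scaling 2 were higher and 3 lower, and with median-ratio scaling 3 and 0. Of 17 collagen and collagen-modifying genes 0 were higher and 3 lower (7 lower without the pair). With TPM scaling 4 of these were lower, and with median-ratio scaling 1. Interferon response genes were higher in 2 and lower in 1 of 11, and immune checkpoint ligands higher in 1 and lower in 0 of 7 (2 lower without the pair). With TPM scaling 1 interferon response gene was higher and 2 were lower, and with median-ratio scaling 4 and 1. For the checkpoint ligands these counts were 0 and 2 with TPM scaling and 1 and 0 with median-ratio scaling. Of 12 ID and BMP or TGF-beta feedback genes 4 were higher and 3 lower. Of 8 immediate early genes 3 were lower, of 7 AP-1 subunits 2 were lower, and none of either was higher. With median-ratio scaling 2 of the 8 immediate early genes were higher and 3 lower. D-type cyclins and CDK inhibitors had 1 higher and 1 lower of 7 (3 lower without the pair). With TPM scaling they had 1 higher and 3 lower, and with median-ratio scaling 2 and 1. Receptor tyrosine kinases known for bypass of EGFR had 1 higher and 3 lower of 5. The higher gene, DDR1 (0.38), missed the threshold in 16 of 26 alternative settings. With TPM scaling 0 of the 5 were higher and 3 lower, and with median-ratio scaling 0 and 2. Of 3 alveolar lineage genes 1 was higher, and of 2 EGFR family genes 0 were called. Of 7 endothelial markers 2 were tested and 0 belong to the 6256 genes.

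The EGF libraries give values for the genes with opposite calls, set side by side with the drug arm, with which they share the control libraries. Of the 26 genes that rose with the drug and fell with the knockdown, 1 was called higher and 20 lower with EGF against control, with a median log2 change of -0.83. Of the 37 genes that fell with the drug and rose with the knockdown, 26 were called higher and 2 lower, with a median of 0.57. Over the 6256 genes, 1467 were called higher and 1117 lower, with a median of 0.05. GPNMB was at 2.98, 2.38 and 2.62 FPKM with EGF, below all other libraries, and ARRB2 at 5.02, 5.57 and 4.86 FPKM. AXL was at 4.91, 5.07 and 4.74 FPKM with EGF, also below all other libraries, although its drug effect was negative as well. CCN1 stood at 17.2, 19.3 and 19.2 FPKM, within the range of the control libraries but for the lowest.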
